A study of Mus musculus with 16 samples.

Results

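The regions described here were bound by Suz12, carried H3K27me3 in LIF-maintained mouse embryonic stem cells (ESCs) and had no H3K4me3 nearby. They were chosen by measured values. Suz12 peaks of both cultures that overlapped by at least 1 bp were merged into 14879 regions, and a region was selected when no H3K4me3 peak of either culture lay within 1000 bp of it and a LIF-ESC H3K27me3 peak did. The rule selected 552 members. Another 7 regions over the 5S rRNA gene cluster met the same conditions and were kept apart, so that the members were compared with the 14872 regions outside that cluster. Suz12 binding, the lack of H3K4me3 and the presence of LIF-ESC H3K27me3 are therefore descriptions of the members and not results.

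The study compared 2 ways of keeping R1 mouse ESCs undifferentiated. The cells carried MycER, a point-mutant form of Myc fused to the oestrogen receptor so that 4-hydroxytamoxifen (OHT) switches it on, and were grown without feeder cells. LIF-ESCs were kept with 100 units per ml of the cytokine LIF, and Myc-ESCs without LIF and with 50 nM OHT. Chromatin immunoprecipitation sequencing was performed for Suz12, H3K27me3 and H3K4me3 in both cultures, in 16 libraries of which 4 were inputs, with 2 libraries per culture and antibody. One peak list per culture and antibody was analysed here. The methods name clone D1 for this mutant, and a further MycER clone, and do not say which was sequenced. They describe the ChIP experiments as done on independent biological samples, without saying how the 2 libraries relate to these.

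Suz12 is a core subunit of Polycomb repressive complex 2 (PRC2), the enzyme that methylates lysine 27 of histone H3. H3K27me3 marks genes that are kept silent, above all those that direct lineage choice. In ESCs most PRC2 sits at CpG-rich gene starts that also carry H3K4me3, a mark of active or poised starts, and such doubly marked starts are called bivalent. Suz12 with H3K27me3 but without H3K4me3 is the less common arrangement.

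The 9 windows of 300 bp printed here show the kinds of sequence that the members held. Each window was centred on the middle of the member's highest-scoring LIF-ESC Suz12 peak, or Myc-ESC peak where LIF-ESCs had none. They are printed from the plus strand of GRCm38, 5′ to 3′, with every CpG dinucleotide in capitals. Median CpG content was higher in members of at least 2000 bp than in shorter ones. The first group comprises members with long Suz12 peaks beside homeobox or T-box genes, in introns of Lmx1b (chr2:33630831-33631130), Irx1 (chr13:71961963-71962262), Pitx1 (chr13:55828121-55828420) and Tbx5 (chr5:119835603-119835902) and in a member 4762 bp from the start of Emx2 (chr19:59467304-59467603). These windows held 8, 9, 10, 3 and 17 CpGs, respectively, and each matched 1 place in the assembled genome.
Lmx1b: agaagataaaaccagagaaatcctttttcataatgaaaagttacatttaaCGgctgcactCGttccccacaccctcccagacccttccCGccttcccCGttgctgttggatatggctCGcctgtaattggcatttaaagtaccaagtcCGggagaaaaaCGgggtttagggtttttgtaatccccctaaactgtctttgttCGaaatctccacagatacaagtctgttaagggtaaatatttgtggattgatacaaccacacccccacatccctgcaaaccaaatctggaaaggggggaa
Irx1: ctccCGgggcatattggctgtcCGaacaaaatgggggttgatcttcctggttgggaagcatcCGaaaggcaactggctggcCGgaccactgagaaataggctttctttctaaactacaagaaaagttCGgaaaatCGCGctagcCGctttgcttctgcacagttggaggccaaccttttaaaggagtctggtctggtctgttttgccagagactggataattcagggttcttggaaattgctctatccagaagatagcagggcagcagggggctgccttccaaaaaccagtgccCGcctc
Pitx1: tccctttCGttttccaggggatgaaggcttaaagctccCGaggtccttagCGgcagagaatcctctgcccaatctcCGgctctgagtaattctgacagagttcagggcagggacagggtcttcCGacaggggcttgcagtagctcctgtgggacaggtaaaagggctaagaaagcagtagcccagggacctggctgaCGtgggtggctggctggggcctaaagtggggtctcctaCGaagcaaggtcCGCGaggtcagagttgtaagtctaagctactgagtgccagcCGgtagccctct
Tbx5: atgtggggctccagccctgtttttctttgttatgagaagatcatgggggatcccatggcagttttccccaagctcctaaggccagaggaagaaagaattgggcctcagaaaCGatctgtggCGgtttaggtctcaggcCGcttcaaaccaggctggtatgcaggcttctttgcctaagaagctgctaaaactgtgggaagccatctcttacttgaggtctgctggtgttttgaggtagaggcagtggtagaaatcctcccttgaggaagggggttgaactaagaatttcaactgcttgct
Emx2: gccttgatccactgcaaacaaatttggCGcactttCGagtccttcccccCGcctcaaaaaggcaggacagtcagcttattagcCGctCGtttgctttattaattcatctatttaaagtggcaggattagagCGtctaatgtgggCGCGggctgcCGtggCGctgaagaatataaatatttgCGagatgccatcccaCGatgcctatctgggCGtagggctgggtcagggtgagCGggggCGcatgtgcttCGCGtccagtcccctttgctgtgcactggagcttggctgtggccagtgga
The second group shows the other ends of the range. The window near Gm21188 (chr13:120027204-120027503, 15 CpGs) came from the longest member, and that near Tmem125 (chr4:118547795-118548094, 12 CpGs) matched 33 places in the genome. The window in an intron of Gm15319 (chr8:20340325-20340624, 2 CpGs) came from a repeated array on chromosome 8. The window of a member 18457 bp from the start of Gm6313 (chr6:148595575-148595874) held 0 CpGs, and that member had no Myc-ESC H3K27me3 peak within 1000 bp.
Gm21188: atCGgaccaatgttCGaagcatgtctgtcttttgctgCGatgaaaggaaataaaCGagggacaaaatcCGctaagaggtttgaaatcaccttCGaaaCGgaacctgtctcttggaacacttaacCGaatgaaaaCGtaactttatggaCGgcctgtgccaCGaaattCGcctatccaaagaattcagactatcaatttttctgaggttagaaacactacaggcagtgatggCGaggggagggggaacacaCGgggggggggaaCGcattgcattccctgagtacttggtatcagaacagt
Tmem125: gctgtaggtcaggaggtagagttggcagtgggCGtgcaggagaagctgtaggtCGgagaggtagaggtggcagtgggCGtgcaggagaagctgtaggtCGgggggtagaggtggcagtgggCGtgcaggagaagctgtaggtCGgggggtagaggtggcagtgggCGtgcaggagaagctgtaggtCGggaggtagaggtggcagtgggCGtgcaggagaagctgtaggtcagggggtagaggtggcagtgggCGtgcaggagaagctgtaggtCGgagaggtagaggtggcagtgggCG
Gm15319: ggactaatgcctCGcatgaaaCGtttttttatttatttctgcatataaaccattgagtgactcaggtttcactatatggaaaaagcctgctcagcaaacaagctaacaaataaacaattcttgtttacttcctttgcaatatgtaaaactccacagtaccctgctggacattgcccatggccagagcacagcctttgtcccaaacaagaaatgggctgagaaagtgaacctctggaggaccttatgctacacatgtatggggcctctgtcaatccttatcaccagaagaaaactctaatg
Gm6313: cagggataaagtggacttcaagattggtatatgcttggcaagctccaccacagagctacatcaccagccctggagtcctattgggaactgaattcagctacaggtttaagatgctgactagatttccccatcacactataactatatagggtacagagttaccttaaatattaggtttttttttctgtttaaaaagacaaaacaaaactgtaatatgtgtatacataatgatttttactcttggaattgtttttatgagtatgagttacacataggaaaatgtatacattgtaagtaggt

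The peak lists differed in length between the cultures. There were 11305 Suz12 peaks in LIF-ESCs, against 13907 in Myc-ESCs, 32469 and 30345 H3K4me3 peaks, and 3120 and 16717 H3K27me3 peaks. The score of a peak is minus 10 times the log10 of its p-value in the peak caller, and the lowest score was 50. Of the H3K27me3 peaks, 89.1% in LIF-ESCs compared with 79.8% in Myc-ESCs scored under 100. All 8 ESC marker genes examined, among them Pou5f1, Nanog and Sox2, had an H3K4me3 peak within 2500 bp of a start in both cultures, and 3 of 6 fibroblast markers in LIF-ESCs and 4 of 6 in Myc-ESCs did. With 1 list per culture and antibody there was no replicate spread, so no difference between the cultures was tested. Intervals are 95% Wilson intervals, which cover counting error only and treat regions as independent, although neighbouring members shared loci and H3K27me3 peaks.

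Most members were short and stood in groups. Their lengths ranged from 95 to 13028 bp with a median of 280 bp, and 11 reached 5000 bp. The 552 members fell into 207 loci when neighbours within 50 kb were joined. A single member made up 92 of these loci, whereas 75 loci had at least 3 members and held 380 of the 552. The members lay near 467 different LIF-ESC H3K27me3 peaks, which were 15.0% of that list.

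The limits of the rule passed through continuous distances. The members closest to H3K4me3 lay 1008 bp (near Col19a1), 1014 bp (near 5830454E08Rik) and 1031 bp (near Shox2) from it. Regions near Pcdhga9, Evx2 and Sfta3-ps, at 996, 998 and 999 bp, were left out for the same reason. At the H3K27me3 limit, members near Dlx6os1, Col19a1 and Hoxc8 had the closest LIF-ESC peak at 980, 994 and 1000 bp, and regions near Wnt3, Nr2f1 and Gm10033, at 1002, 1004 and 1005 bp, were not selected.

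Members were mostly away from gene starts. A curated RefSeq start lay within 2500 bp of 68 of the 552 members (12.3%, 9.83 to 15.3), while the share was 60.8% over all Suz12 regions and 69.1% (67.05 to 71.02) over the 2082 Suz12 regions that had H3K4me3 and LIF-ESC H3K27me3. H3K4me3 itself marks starts, so the absence of H3K4me3 in the rule bears on this share. It was 8.96% in the 1451 regions without H3K4me3 that had H3K27me3 in Myc-ESCs alone, and 13.98% in the 701 with no H3K27me3. The middle of the member's top Suz12 peak, LIF-ESC peaks first, was intergenic in 322 (58.3%), intronic in 191 (34.6%) and exonic in 39 (7.07%). Over all Suz12 regions these shares were 40.3%, 41.0% and 18.8%. The intergenic share was 57.8% in regions without H3K4me3 that had H3K27me3 in Myc-ESCs alone, and 58.3% in those with no H3K27me3. In all, 15 members covered a start, those of 14 genes, and 149 lay more than 50 kb from any.

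The nearest H3K4me3 peak was at a median of 7137 bp, with a range from 1008 to 777540 bp. Many members had Suz12 at H3K4me3 not far away. A Suz12 region at H3K4me3 lay within 5000 bp of 244 members (44.2%, 40.1 to 48.4). When Suz12 peaks up to 1000 bp apart were merged, 227 of the 552 members (41.1%) became part of a region with H3K4me3 within 1000 bp. H3K4me3 was within 5000 bp in both cultures at 142 members, in LIF-ESCs alone at 11, in Myc-ESCs alone at 71 and in neither at 328.

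Of the 8 members with the most LIF-ESC Suz12 bases, the first lay near Gm21188 and the others at Lmx1b, Osr1, Irx1, Pitx1, Tbx5, Emx2 and the Hoxa-cluster RNA Hottip. All 8 had Suz12 in both cultures and a window that matched 1 place in the genome. At Lmx1b, a LIM homeobox factor that specifies dorsal limb fate, a member of 12150 bp (chr2:33628552-33640701) filled part of an intron and a second of 5111 bp (chr2:33640960-33646070) covered a start. Suz12 peaks took up 11481 bp of the first member in LIF-ESCs, against 12150 bp in Myc-ESCs, but were split into 4 peaks in LIF-ESCs and formed 1 in Myc-ESCs. H3K27me3 differed far more than Suz12 there. A single LIF-ESC peak of 164 bp lay in the first member, against 4823 bp inside it in Myc-ESCs, or 1.35% and 39.7% of its length.

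**Figure D1:**
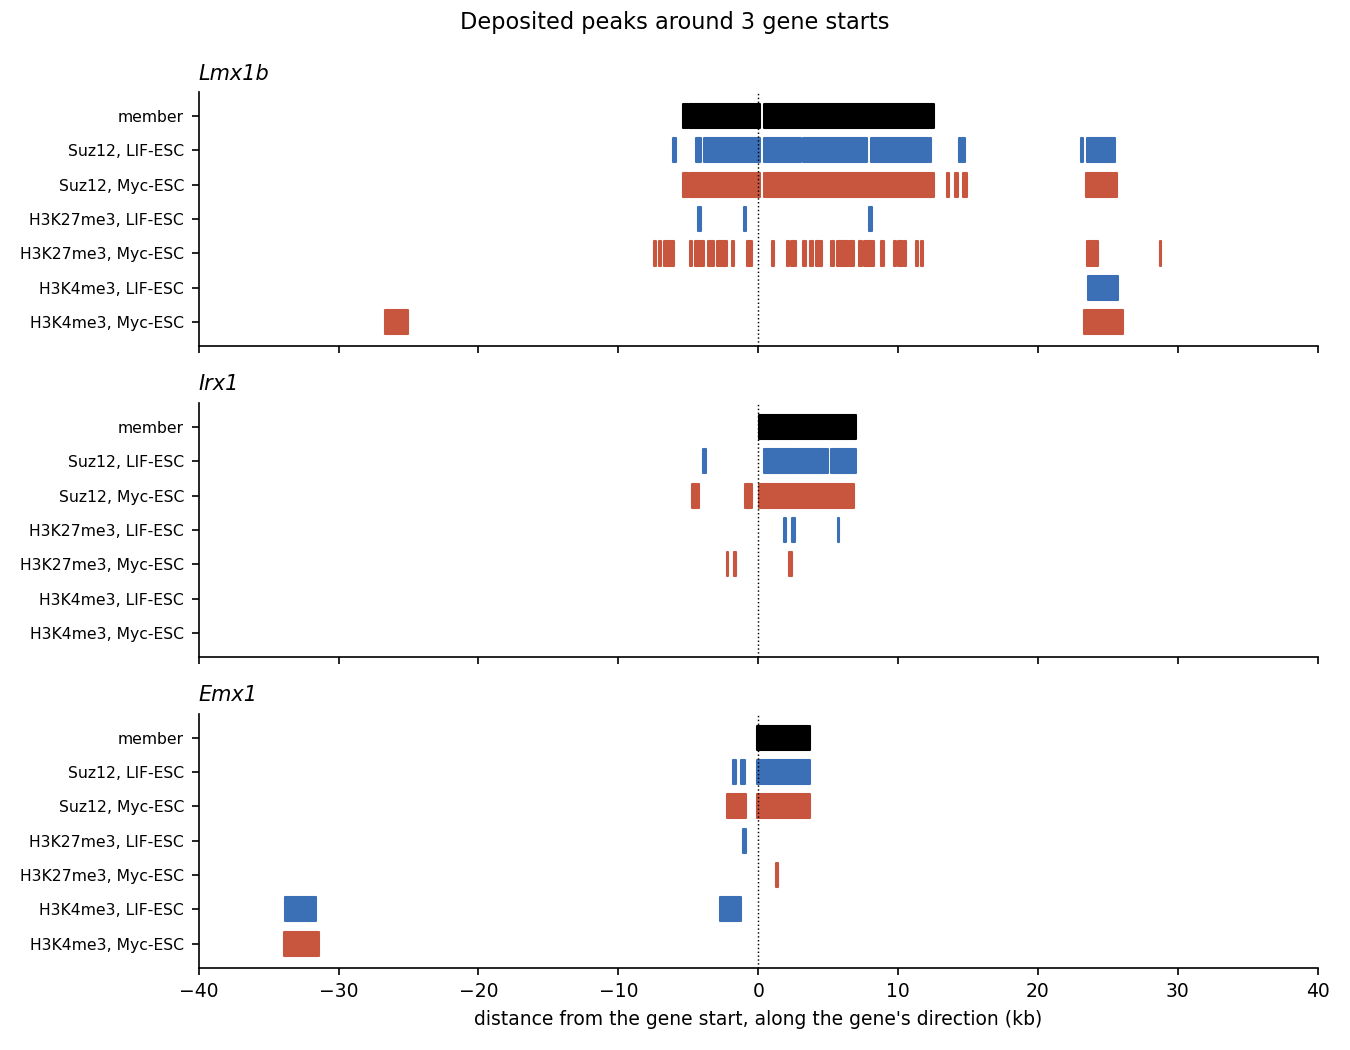
Deposited peaks of each antibody and culture around the starts of Lmx1b, Irx1 and Emx1, drawn against the distance from the start in kb along the gene, with LIF-ESC peaks in blue, Myc-ESC peaks in red and members in black. Suz12 peaks of both cultures lay along each member, except a member of 407 bp at Lmx1b that had Suz12 in Myc-ESCs alone. Within 45 kb of the Lmx1b start there were 3 H3K27me3 peaks in LIF-ESCs compared with 39 in Myc-ESCs.

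At Irx1, an Iroquois homeobox factor, H3K27me3 covered fewer bases of the member in Myc-ESCs, but not of its surroundings. The member (chr13:71956734-71963666) held 6190 bp of Suz12 in LIF-ESCs, against 6800 bp in Myc-ESCs, and the nearest H3K4me3 peak was 71622 bp away. H3K27me3 took up 445 bp of it in LIF-ESCs compared with 197 bp in Myc-ESCs. Within 45 kb of the Irx1 start there were 3 peaks of 445 bp in LIF-ESCs, against 3 of 468 bp in Myc-ESCs. Foxf2, a forkhead factor of mesenchyme, had 4581 and 4909 bp of Suz12 and 272 bp of H3K27me3 inside the member in LIF-ESCs, against 139 bp in Myc-ESCs. Counted within 1000 bp of the Foxf2 member the direction turned, with 440 bp in LIF-ESCs compared with 652 bp in Myc-ESCs. Irx1 and Foxf2 were the 2 of 41 members of at least 2000 bp in which LIF-ESC H3K27me3 covered more bases inside the member than that of Myc-ESCs.

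Most other long homeobox members had more H3K27me3 bases within 1000 bp in Myc-ESCs, the measure used for the genes that follow. Pitx1, which gives hindlimb identity, had 6137 bp of Suz12 in LIF-ESCs compared with 6446 bp in Myc-ESCs, and H3K27me3 bases within 1000 bp went from 173 to 1479. Emx2, a forebrain factor, went from 302 to 1840 bp of H3K27me3, and its Suz12 was divided into 8 peaks in LIF-ESCs, against 1 in Myc-ESCs. Pax6, the eye and forebrain regulator, went from 192 to 1323 bp, Dlx6, a factor of branchial arch and forebrain, from 361 to 1615 bp, Uncx from 295 to 1349 bp and Hmx1 from 117 to 1451 bp. The cortical factor Emx1 had 174 bp in LIF-ESCs compared with 148 bp in Myc-ESCs beside 3759 and 3784 bp of Suz12. The LIF-ESC peak lay outside the Emx1 member, so that inside it the bases were 0 and 148. An H3K4me3 peak lay 1145 bp from the Emx1 member in LIF-ESCs, and the nearest one in Myc-ESCs was 31322 bp away.

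Tbx5, the T-box factor of forelimb and heart, had 5891 bp of Suz12 in LIF-ESCs, against 5856 bp in Myc-ESCs, and 146 and 867 bp of H3K27me3. Osr1, a zinc-finger factor of intermediate mesoderm, lay under a member of 10524 bp (chr12:9572537-9583060) that had 284 bp of H3K27me3 in LIF-ESCs compared with 3481 bp in Myc-ESCs. At Zic4, a zinc-finger factor of the cerebellum, the longest member had 2406 and 2670 bp of Suz12, and H3K27me3 went from 151 to 1582 bp. Tbx15 had 161 and 1367 bp of H3K27me3. The bHLH factor Sim2 had 143 and 516 bp.

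Hox genes pattern the body axis. The member at Hottip, an RNA made from the end of the Hoxa cluster, held 5176 bp of Suz12 in LIF-ESCs, against 6316 bp in Myc-ESCs, with 920 and 3578 bp of H3K27me3. A member near Hoxa11 had 302 and 2966 bp, one near Hoxc13 had 151 and 1957 bp, and one over the microRNA gene Mir196a-2 beside Hoxc10 had 278 and 5276 bp. Each of these 4 members had more Suz12 and more H3K27me3 bases in Myc-ESCs. Grb10, an imprinted gene for an adaptor of growth factor receptors, was the 1 gene outside the factor families among the 20 family members with the most LIF-ESC Suz12 bases, with 3825 and 3959 bp of Suz12 and 588 and 2138 bp of H3K27me3.

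Counted over the whole list, 117 members (21.2%, 17.99 to 24.8) had a transcription factor of 9 listed families as the nearest or an overlapping gene. The share was 15.3% over all Suz12 regions and 23.7% over Suz12 regions with H3K4me3 and LIF-ESC H3K27me3. Homeobox genes outside the Hox clusters accounted for 58 members at 23 loci. This was 10.5%, beside 7.04% of all Suz12 regions and 11.0% of those at H3K4me3 with LIF-ESC H3K27me3. Of these 58, 51 had a Myc-ESC H3K27me3 peak within 1000 bp. Zinc-finger factors accounted for 26 members at 8 loci (4.71%, beside 1.88% of all regions and 2.79% of those at H3K4me3). In the same order, forkhead factors accounted for 10 (1.81%, beside 0.928% and 1.30%). Hox genes accounted for 7 (1.27%, beside 1.30% and 3.07%). T-box factors accounted for 6 (1.09%, beside 0.666% and 0.865%) and nuclear receptors for 6 (1.09%, beside 0.914% and 0.865%). bHLH factors were represented by 3 members, at Hand2os1 and Sim2 (0.543%, beside 1.88% and 2.79%), and Gata factors by 1, at Gata4 (0.181%, beside 0.256% and 0.144%). None of the 552 was assigned to a Sox gene, which allows a share of up to 0.543%, while 19 of the 2082 regions at H3K4me3 with LIF-ESC H3K27me3 and 64 of all 14872 regions (0.430%) were. The share over all regions lies within that limit, and that of the regions at H3K4me3, 0.913%, lies above it. Outside the factor families, axon guidance and adhesion genes accounted for 23 members (4.17%, beside 3.77% of all regions) and imprinted and germline genes for 9 (1.63%, beside 0.679%). Wnt pathway genes accounted for 7 (1.27%, beside 1.34%). Growth factors and their antagonists accounted for 4 (0.725%, beside 1.19%) and ion channels and receptors for 4 (0.725%, beside 3.41%). All 7 Wnt pathway members lay in Lgr5, so that no Wnt ligand or secreted antagonist was represented.

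Several loci with many members consisted of repeated DNA and are described further on. The locus of Zic1 and Zic4 had 13 members within 59543 bp, with 6066 bp of Suz12 in LIF-ESCs compared with 8513 bp in Myc-ESCs. Over this span there were 6 H3K27me3 peaks of 951 bp in all in LIF-ESCs, against 56 of 10949 bp in Myc-ESCs. An intron of Pappa, a gene for a secreted metalloproteinase that cleaves IGF-binding proteins, held 11 members within 19618 bp, and these were among the most remote from H3K4me3, at 246963 to 265207 bp. Suz12 there went from 6538 to 14589 bp and H3K27me3 from 8 peaks of 1246 bp to 40 peaks of 11856 bp.

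Prickle1, a planar cell polarity gene, had 11 members, with 1843 bp of Suz12 in LIF-ESCs compared with 4836 bp in Myc-ESCs. The 10 members of the Hoxc cluster held 8008 and 12649 bp of Suz12, and over their span H3K27me3 went from 18 peaks of 3254 bp to 128 peaks of 34391 bp. Near Pax3, a factor of neural crest and muscle precursors, 8 members had Suz12 in Myc-ESCs alone, 2666 bp in all, and H3K27me3 went from 1120 to 4889 bp. Near Sfmbt2, which encodes a Polycomb group protein, 6 members went from 2532 to 7400 bp of Suz12. Near the imprinted gene Peg12, 7 members went from 225 to 9545 bp.

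Lgr5, the R-spondin receptor that strengthens Wnt signalling, went the other way for Suz12. The 7 members in its intron held 3799 bp of Suz12 in LIF-ESCs, against 2309 bp in Myc-ESCs. Their H3K27me3 still covered more in Myc-ESCs, with 9 peaks of 1525 bp against 3 of 487 bp. At Cdkn2a, the cell cycle inhibitor locus that Polycomb represses in many cell types, the longest of 3 members had 1743 bp of Suz12 in LIF-ESCs compared with 2197 bp in Myc-ESCs, and 421 and 1016 bp of H3K27me3.

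The share of members with Suz12 in both cultures lay below that of all regions and above that of other regions without H3K4me3. A Suz12 peak was called in both cultures at 149 members (26.99%, 23.5 to 30.8), in LIF-ESCs alone at 105 (19.02%) and in Myc-ESCs alone at 298 (54.0%). Over all Suz12 regions the share in both cultures was 32.1%, in LIF-ESCs alone 16.6% and in Myc-ESCs alone 51.4%. At H3K4me3 with LIF-ESC H3K27me3 the share in both was 55.5% (53.4 to 57.6). It was 12.7% in regions without H3K4me3 that had H3K27me3 in Myc-ESCs alone, and 8.99% in those with no H3K27me3. With peak scores of at least 100, the share in both was 46.9% (33.7 to 60.6) of 49 members and 42.4% of all regions. Because Suz12 in at least 1 culture was part of the rule, these shares describe how the members were made up. Suz12 peaks in members added up to 203443 bp in LIF-ESCs, against 357691 bp in Myc-ESCs, and over all regions to 6223600 and 9383154 bp.

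Peaks of 1 culture alone were weak. Their median score was 61.8 in LIF-ESCs compared with 68.0 in Myc-ESCs. A score under 100 was found for 99 of the 105 LIF-ESC ones and 214 of the 298 Myc-ESC ones. Where both cultures had Suz12, the top score was under 100 at 68 of the 149 members for LIF-ESCs, against 32 for Myc-ESCs. Low scores were also common beyond the members, at 54.7% of the complete LIF-ESC Suz12 list and 52.2% of the Myc-ESC one. Of the 298 members with Suz12 in Myc-ESCs alone, 132 had a LIF-ESC Suz12 peak within 1000 bp and 199 within 5000 bp. Members shorter than 200 bp had Suz12 in both cultures in 2 of 171 cases, and members of at least 2000 bp in 37 of 41. Overlapping peaks were merged, which lengthens regions with peaks of both cultures, so these counts describe the merging and are not a separate result. Among the 149 members with Suz12 in both, Suz12 took up more bases in Myc-ESCs in 112 and fewer in 37, with medians of 790 and 457 bp. This count was not made over all regions. LIF-ESC Suz12 was split into more peaks than that of Myc-ESCs in 44 of these members, and into fewer in 13.

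**Figure D2:**
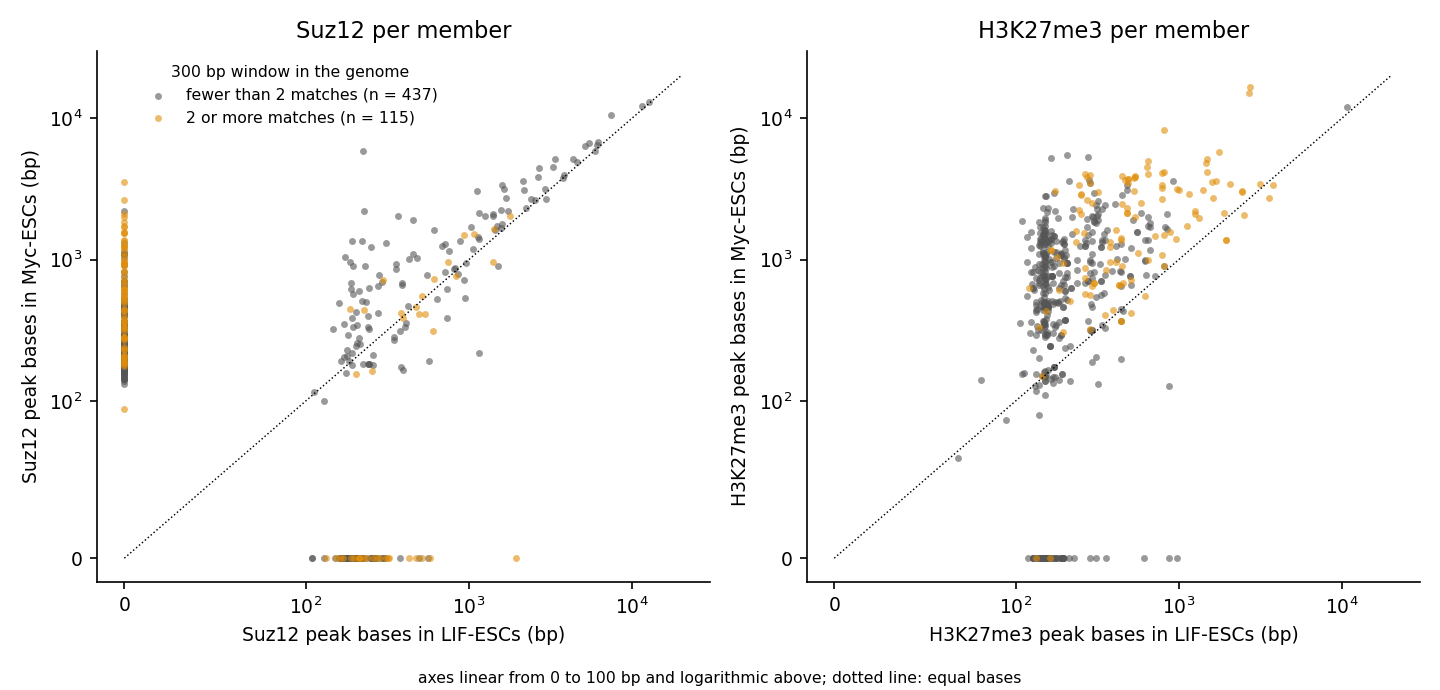
Bases covered by Suz12 peaks (left) and by H3K27me3 peaks within 1000 bp (right) in each of the 552 members, LIF-ESCs on the horizontal and Myc-ESCs on the vertical axis, both linear to 100 bp and logarithmic above. Points above the dotted line had more bases in Myc-ESCs, which were 410 members for Suz12 and 452 for H3K27me3, and members whose window matched 2 or more places are in orange. Of the 410, 298 had Suz12 in Myc-ESCs alone, which was 54.0% of members, beside 51.4% of all Suz12 regions.

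H3K27me3 was present in Myc-ESCs at most members. A Myc-ESC H3K27me3 peak lay within 1000 bp of 489 of the 552 (88.6%, 85.7 to 91.0), beside 55.0% over all Suz12 regions and 81.9% (80.2 to 83.5) over Suz12 regions at H3K4me3 with LIF-ESC H3K27me3. All Suz12 regions include many that had no H3K27me3 in LIF-ESCs, so the second is the closer comparison. The Myc-ESC list was 5.36 times as long as the LIF-ESC list. With both lists of each antibody limited to the same number of top-scoring peaks, the shares were 63.2% (58.8 to 67.4) of 484 members, 48.0% (45.8 to 50.2) of 1925 regions at H3K4me3 and 22.1% of all regions. Peaks with a score of at least 100 gave 89.8% (78.2 to 95.6) and 81.0% (74.3 to 86.2), whose intervals overlapped. With the longest region of each locus, a setting chosen after seeing the data, the share was 81.6% (75.8 to 86.3) of 207 members and 81.995% (79.2 to 84.5) of 822 regions at H3K4me3. The higher share of members was thus not seen when neighbours were counted once.

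The strength of the LIF-ESC peak moved with this share. Among members whose top LIF-ESC H3K27me3 score was 50 to 60, 132 of 159 had a Myc-ESC peak (83.0%, 76.4 to 88.1), and at a score of 100 or more 81 of 83 had one (97.6%, 91.6 to 99.3). The same score bins gave 74.2% (70.6 to 77.4) and 94.98% (91.4 to 97.1) for the regions at H3K4me3. In the bin from 60 to 80 the values were 88.8% (84.1 to 92.2) and 81.9% (79.3 to 84.2), and from 80 to 100 they were 89.7% and 89.4%. The intervals of the members and of those regions overlapped in each of the 4 bins.

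The share was lower at members with Suz12 in LIF-ESCs alone. A Myc-ESC H3K27me3 peak lay near 65 of these 105 (61.9%, 52.4 to 70.6), near 281 of the 298 with Suz12 in Myc-ESCs alone (94.3%, 91.1 to 96.4) and near 143 of the 149 with Suz12 in both (96.0%, 91.5 to 98.1). The share was 81.3% (74.8 to 86.4) at members under 200 bp and 41 of 41 at members of at least 2000 bp. It varied less with the distance to H3K4me3, from 86.4% to 91.2% over 5 distance bins. Suz12 in LIF-ESCs alone also went with less Myc-ESC H3K27me3 outside the members. Of the other regions without H3K4me3, it was found at 7.44% of the 1451 with Myc-ESC H3K27me3 and at 31.5% of the 701 without.

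**Figure D3:**
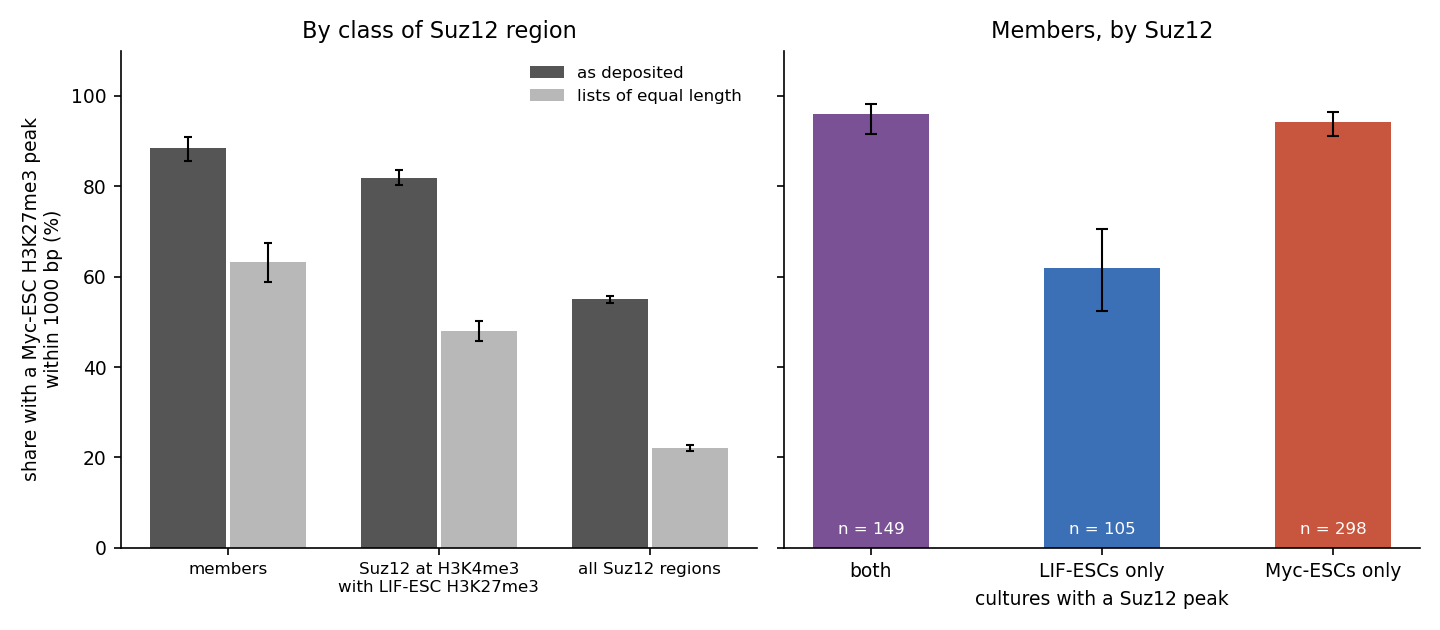
Share of Suz12 regions with a Myc-ESC H3K27me3 peak within 1000 bp, in percent, with 95% Wilson intervals. The left panel gives the members, the regions at H3K4me3 with LIF-ESC H3K27me3 and all regions, with the lists as deposited (dark) and of equal length (light), and the right panel gives the members by the cultures with a Suz12 peak, where the bar for LIF-ESCs alone was at 61.9%.

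H3K27me3 covered more bases in Myc-ESCs at most members and at most other regions. Bases of H3K27me3 peaks within 1000 bp were more in Myc-ESCs at 452 members, more in LIF-ESCs at 99 and equal at 1, with a median difference, Myc-ESCs minus LIF-ESCs, of 528.5 bp. The same count gave 1493 and 585 for regions at H3K4me3 with LIF-ESC H3K27me3, and 7932 and 684 for all regions. The different peaks near members numbered 467 with 121882 bp in LIF-ESCs, against 1129 with 409623 bp in Myc-ESCs. With lists of equal length, 280 of 484 members had more bases in Myc-ESCs and 204 more in LIF-ESCs, while regions at H3K4me3 divided into 817 and 1107. Top scores were at least 100 in LIF-ESCs at 83 members and in Myc-ESCs at 349. In LIF-ESCs 239 of the 2082 regions at H3K4me3 with LIF-ESC H3K27me3 reached that score. Where a Myc-ESC peak was present, the median top Myc-ESC score was 164.11 at members, 121.19 at those regions and 86 at all regions.

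H3K27me3 peaks covered a larger part of the members themselves in Myc-ESCs. Of the 395315 bp of member sequence, 17.1% lay in a LIF-ESC H3K27me3 peak and 48.3% in a Myc-ESC peak. At 346 members no LIF-ESC peak overlapped the region and the peak that selected it lay beside it, and at 208 no Myc-ESC peak overlapped. In the 41 members of at least 2000 bp the covered shares were 12.9% and 45.6%, and in the 526 regions of that length at H3K4me3 with LIF-ESC H3K27me3 they were 8.01% and 30.5%. These shares pooled all bases, and the Gm21188 member held 10768 of the 22390 LIF-ESC bases inside the 41 members. The median share per region was 5.62% and 44.7% in these members, against 5.66% and 25.0% in those regions. In the longest member, near Gm21188, H3K27me3 covered 82.7% in LIF-ESCs compared with 91.5% in Myc-ESCs, and in the Tmem125 member 65.8% and 93.3%.

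**Figure D4:**
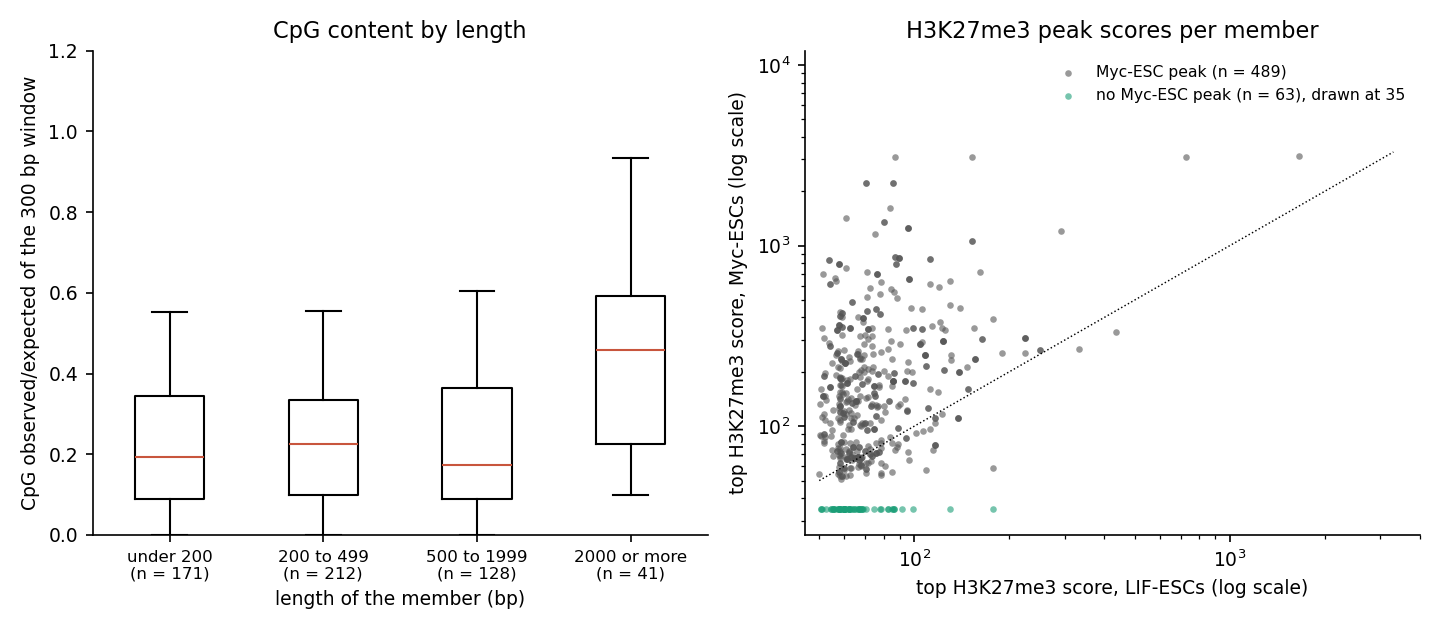
Left, CpG observed/expected ratio of the 300 bp window for members of 4 length ranges, as boxes from the lower to the upper quartile with the median in red and whiskers from the 5th to the 95th percentile. Right, top H3K27me3 score of each member in LIF-ESCs and Myc-ESCs on log axes, with the 63 members that had no Myc-ESC peak drawn at the bottom and the dotted line marking equal scores.

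No Myc-ESC H3K27me3 peak was called within 1000 bp of 63 members. They were short, with a median length of 196 bp against 307 bp for the rest, and 40 of them had Suz12 in LIF-ESCs alone. Their nearest Myc-ESC peak was 1002 to 1030972 bp away with a median of 2618 bp, and it lay within 5000 bp of 41 of them. Their LIF-ESC peaks were weak, with 2 of the 63 at a score of 100 or more. The strongest, at 177.68, was a member of 204 bp 18057 bp from Gm6313 (chr6:148596049-148596252), where the nearest Myc-ESC peak was 1022 bp away. The next, at 129.53, lay 337535 bp from Gtdc1 and had 977 bp of LIF-ESC H3K27me3.

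Among the genes at these 63, Nr2f2, a nuclear receptor of vein and heart development, was the nearest gene of a member with a LIF-ESC score of 91.57, but its start was 260229 bp away. Gata4, a factor of endoderm and heart, was the nearest start to another, which had a Suz12 score of 55.34 in Myc-ESCs and a LIF-ESC H3K27me3 score of 50.76. Members that covered starts of Lats2, a kinase of the Hippo pathway, and Lingo4 were also without a Myc-ESC H3K27me3 peak. The Lats2 member had 492 bp of Suz12 in LIF-ESCs and none called in Myc-ESCs.

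CpG content was low in members, as in the other Suz12 regions without H3K4me3. H3K4me3 marks CpG-rich starts, so its absence in the rule bears on this. The median CpG observed/expected ratio of their windows was 0.207. Averaged over the windows 10 kb to either side of each member, the ratio had a median of 0.209. Regions at H3K4me3 with LIF-ESC H3K27me3 had a higher median of 0.446. A ratio of at least 0.6 was reached by 5.25% of members (3.68 to 7.44) and by 30.2% of those regions (28.2 to 32.2). Regions without H3K4me3 that had H3K27me3 in Myc-ESCs alone had a median ratio of 0.192, and those with no H3K27me3 0.303. The median GC content was 43.7%. The median ratio was 0.192 in members under 200 bp and 0.458 in those of at least 2000 bp. Among the windows printed above, that of Emx2 had a ratio of 0.773, that of Lmx1b 0.535, and that of Tbx5 0.167. Members with Suz12 in both cultures had a median of 0.324, those in LIF-ESCs alone 0.269 and those in Myc-ESCs alone 0.172.

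Short motifs were counted in the same windows on both strands. CGCG, which like CACGTG overlaps the CpG dinucleotides counted above, was present in 7.43% of members (5.52 to 9.92), in 8.45% of windows 10 kb away, in 7.58% of regions without H3K4me3 that had H3K27me3 in Myc-ESCs alone, in 35.4% of regions at H3K4me3 with LIF-ESC H3K27me3 and in 38.04% of 32851 RefSeq promoters of the same length. In members of at least 2000 bp it was present in 12 of 41 (29.3%, 17.6 to 44.5). CACGTG, the E-box that Myc and other bHLH factors bind, was in 2.54% of members (1.52 to 4.21), 3.31% of the windows 10 kb away and 7.15% of promoters. GAGAGA was in 24.8% of members and 27.5% of the windows 10 kb away.

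Some members lay in repeated DNA. The window of 115 members (20.83%, 17.7 to 24.4) matched at least 2 places in the 21 assembled chromosomes over 90% of its length at 90% identity, its own place included, beside 11.4% (10.1 to 12.9) of regions at H3K4me3 with LIF-ESC H3K27me3. The authors kept unique reads at their best location. Members with 2 or more matches had a median length of 498 bp, and 113 of 115 had a Myc-ESC H3K27me3 peak (98.3%, 93.9 to 99.5). The 437 other members had one in 86.0% (82.5 to 89.0). These included 9 whose windows gave no match in the search, not even at their own place, so whether they were repeated was not measured. Suz12 bases went from 21460 to 70757 bp in the first and from 181983 to 286934 bp in the second. The part of repeated sequence in these differences was not tested.

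The largest group of such members was an array on chromosome 8. It held 45 members in 940.453 kb (chr8:19755535-20695987), with nearest genes such as Gm15319, 6820431F20Rik and Gm21119, and the windows matched a median of 16 places. Suz12 was called in Myc-ESCs alone at 44 of the 45 and in LIF-ESCs alone at 1, with 42755 bp in Myc-ESCs and 1943 bp in LIF-ESCs. All 45 had a Myc-ESC H3K27me3 peak. Chromosome 8 contained 88 members, 15.9% of all, and 6.52% of all Suz12 regions.

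The direction varied among other repeated loci. Near Gm10033, 11 members had 571 bp of Suz12 in LIF-ESCs, against 3278 bp in Myc-ESCs. The locus of Hrh1, a histamine receptor gene, and Atg7, an autophagy gene, had 12 members with a median of 61 matches, and Suz12 was called in LIF-ESCs alone at 7 of them, with 2885 bp in LIF-ESCs, against 1501 bp in Myc-ESCs. Near the chemokine gene Ccl28, 7 members had Suz12 in both cultures, with 3657 and 4268 bp. Repeated windows were common among members with high H3K27me3 scores. Of the 8 members with the highest LIF-ESC score, 6 had at least 2 matches, among them those near Tmem125 (score 726.25), Gm4981 (436.61), Sp140 (332.14) and Vps45 (291.9), and of the 8 with the highest Myc-ESC score 7 did. The member near Gm21188, with scores of 1658.32 and 3119.84, had 1 match.

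The 5S rRNA gene cluster was kept apart. Its 7 regions spanned chr8:123537289-123624708, and their windows matched 48 to 52 places. Suz12 covered 85971 bp in LIF-ESCs compared with 87043 bp in Myc-ESCs. H3K27me3 in the cluster was divided into 135 peaks of 39317 bp in all in LIF-ESCs, against 60 peaks of 79918 bp in Myc-ESCs, with top scores of 434.67 and 3100.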

How the data were processed

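ChIP-seq of Suz12, H3K27me3, H3K4me3 and input had been performed in both cultures. The submitters' processing notes name Bowtie2 2.2.3, MACS 1.4.2 and GRCm38 (mm10). The authors aligned reads with default settings, kept unique reads with at most 2 mismatches and called peaks with default settings. The deposited value of each peak is the MACS score. Read depth and the pooling of libraries were not given in the sources used here, and inputs were not analysed here.

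Peak coordinates were analysed with Python 3.11.15, numpy 2.4.6 and pandas 2.3.3, and sequences were read with pysam 0.24.0. Gene starts were those of 45756 curated RefSeq transcripts of GRCm38. Matches of windows elsewhere were counted with BLAST 2.17.0, a measure added after the data were seen. The interval and overlap code was tested on simulated data. Members and gene lists were chosen with earlier results of these data known. Named were the 8 members each with the most LIF-ESC Suz12 bases, the highest LIF-ESC H3K27me3 score, the highest Myc-ESC score, and the highest LIF-ESC score without a Myc-ESC peak; the 20 members of listed gene families with the most LIF-ESC Suz12 bases; regions at the limits of the rule; and loci with 3 or more members. The Gata4, Lats2 and Lingo4 members were chosen after their values were seen.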

Additional observations from a re-analysis of the deposited data

How the results depend on the processing

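Of 83 values recomputed under another setting, 41 stayed within limits around the main value and 42 moved beyond them. The limits were 95% intervals of the share or median, except for the number of members, where they were set at 368 and 828. A change of direction was defined only for the Suz12 and H3K27me3 differences between the cultures, and 0 of those values changed direction. Against 552 members there were 49 with a score of at least 100 in every list, 297 with peaks joined by overlap (0 bp), 169 with Suz12 peaks within 1000 bp merged, 207 with the longest member of each locus and 328 with H3K4me3 more than 5000 bp away. The share with a Myc-ESC H3K27me3 peak was 63.2% with lists of equal length, 76.4% at 0 bp, 95.1% at 5000 bp, 81.7% merged and 81.6% per locus. Suz12 in both cultures was found in 46.9% at the score limit, 42.1% at 0 bp, 16.8% at 5000 bp, 34.9% merged, 37.2% per locus and 22.0% far from H3K4me3. The median Suz12 difference, Myc-ESCs minus LIF-ESCs, was 349 bp at the score limit, 216 bp at 0 bp and 229 bp merged. The median H3K27me3 difference was 618 bp at the score limit, 132 bp with equal lists, 134 bp at 0 bp, 2100 bp at 5000 bp, 341 bp merged and 425 bp per locus. A gene start lay within 2500 bp of 28.6% at the score limit, 23.6% at 0 bp, 5.23% at 5000 bp, 16.9% per locus, 6.40% far from H3K4me3 and 19.9% with predicted transcripts, and within 5000 bp of 25.0%. The median distance to H3K4me3 was 3572 bp at 0 bp, 21507 bp at 5000 bp, 22938 bp merged, 5727 bp without members of 2 or more matches, 4766 bp per locus and 22927 bp far from H3K4me3. The median CpG ratio was 0.253 at the score limit, 0.176 at 5000 bp, 0.259 per locus and 0.181 far from H3K4me3. Values per locus, far from H3K4me3, without repeated windows and without the chromosome 8 array were chosen after seeing the data. The cause of these shifts was not tested. No replicate could be left out, since there was 1 list per culture and antibody. No paired analysis was possible because the lists carry no replicate number.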
